A study of Mus musculus with 18 samples.

Results

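Nprl3 encodes a subunit of GATOR1, a complex that restrains the nutrient-sensing kinase mTORC1, and it is expressed in many tissues. Its introns carry enhancers of the neighbouring α-globin genes, so that in erythroid cells the body of this gene acts as regulatory DNA for Hba-a1 and Hba-a2. R1 and R2 are 2 of these enhancers, and HS-38 with HS-39 is a pair of CTCF-bound sites at which the α-globin sub-TAD, a small self-interacting domain, ends inside the gene. CTCF halts the cohesin complex that extrudes chromatin loops. Seen from Nprl3, the CTCF site at θ1 lies between Hba-a1 and Hba-a2, and those at θ2 and HS+44/+48 lie beyond both genes.

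Nprl3 lies on the minus strand of chr11:32125628-32167707 (mm9), spans 42080 bp and has 13 exons in the annotated transcript used here. It was read as the fragments left by the restriction enzyme DpnII that overlap the gene. Of 102 such fragments, 14 also overlap Mpg, a DNA glycosylase gene at the 3′ end of Nprl3, and were set aside. This left 88 members among 295449 DpnII fragments of chromosome 11, of which 21 overlap an exon and 67 do not, with lengths from 5 to 2201 bp and a median of 295.5 bp. Fragments within 1 kb of the viewpoint in use, and fragments on which a viewpoint listed no count in any library of an experiment, were left out for that viewpoint. The readable members were then 73 (32.672 kb) from the Hba-a1/2 promoters in experiment 1, 86 (37.515 kb) from the same promoters in experiment 2, 71 (31.124 kb) from HS-38, 69 (30.517 kb) from R1 and 66 (30.519 kb) from R2. In experiment 1 the fragments of R1, R2 and the HS-39/HS-38 surroundings listed no counts from the promoters, so the levels of experiment 1 leave these fragments out.

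Contacts were measured by NG Capture-C, in which crosslinked chromatin is digested, ligated and enriched with oligonucleotides for chosen viewpoint fragments, so that each count is a ligation between the viewpoint and another fragment. All 18 samples were Ter119+ primary erythroid cells from spleens of adult C57BL/6 mice (C57BL/6J in the study's methods) treated with phenylhydrazine, which destroys red cells and expands the erythroid spleen. Experiment 1 compared WT with ∆44/48, which lacks the CTCF sites HS+44 and HS+48, and experiment 2 compared WT with ∆θ1, ∆θ2 and ∆θ1/θ2, which lack the CTCF sites at θ1, θ2 or both. Each group held 3 biological replicates. Per the study's methods, the mutant mice were homozygous lines made by CRISPR-Cas9 editing of embryonic stem cells or zygotes, and Nprl3 itself was not edited in any group. The number of separate founder lines is not given in the sources used here. Contact counts hold no expression level, so the erythroid label was not checked against marker genes.

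Depth differed between groups. The promoters collected 143436 to 162893 counts in cis (on chromosome 11, outside 1 kb of the viewpoints) in WT of experiment 1 and 43672 to 145837 in ∆44/48. In experiment 2 the ranges were 19465 to 51131 in WT, 20867 to 65028 in ∆θ2 and 19081 to 43347 in ∆θ1/θ2, but only 1984 to 5328 in ∆θ1. Hba-a1 and Hba-a2 are near-identical copies and a molecule can be listed under both. Their counts were summed and read as 1 viewpoint, in which such a molecule counts more than once. Depths and counts from the promoters are therefore not counts of separate molecules.

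Base composition set some libraries apart before any genotype was compared. The members were divided at their median GC content, 47.1% in experiment 1 and 47.5% in experiment 2, and the promoter contact density of the GC-rich members was divided by that of the GC-poor members. This quotient was 0.648, 0.657 and 0.661 in WT of experiment 1 and 0.676, 0.700 and 0.650 in ∆44/48. In experiment 2 it was 0.865, 0.804 and 1.33 in WT, 0.960, 0.791 and 0.756 in ∆θ2 and 0.720, 0.962 and 0.805 in ∆θ1/θ2. The 3 ∆θ1 libraries stood at 1.50, 1.27 and 1.27. WT replicate 3 of experiment 2 thus lay apart from its group and near the ∆θ1 libraries, and results of experiment 2 are given with and without it where they rest on it.

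**Figure D1:**
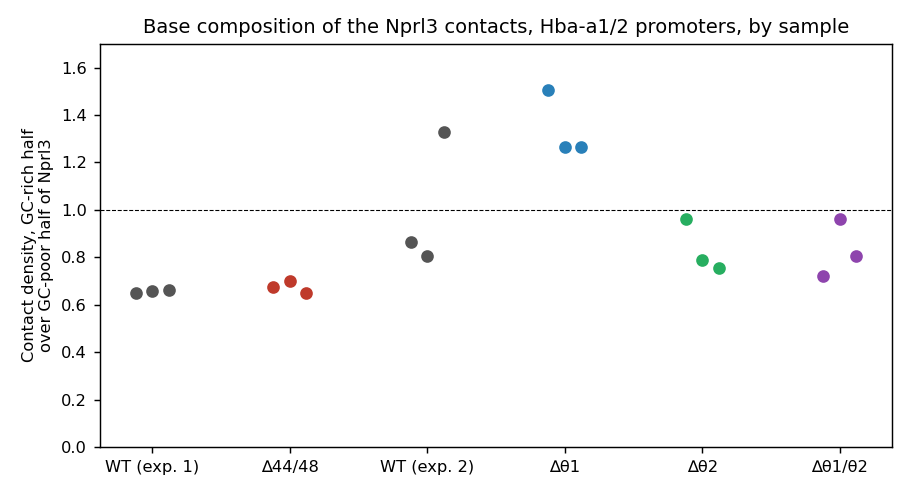
Contact density of the GC-rich members of Nprl3 divided by that of the GC-poor members (vertical axis, a quotient with no unit), from the Hba-a1/2 promoters, with 1 point per library in each of the 6 groups (horizontal axis) and a dashed line at 1. The experiment 1 libraries lie between 0.648 and 0.700, and only WT replicate 3 of experiment 2 (1.33) and the ∆θ1 libraries (1.27 to 1.50) lie above the line.

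The sequences that the results turn on are 300 bp stretches of R1 and R2 and 4 intronic fragments that were among the densest in contacts. All are written on the plus strand of mm9, opposite to the transcribed strand. The R1 viewpoint (chr11:32145277-32146568) lies in intron 6, 21.8 kb into the gene, and the R2 viewpoint (chr11:32151060-32151883) in intron 4, 16.2 kb into the gene. HS-38 (chr11:32138079-32139000) lies in intron 8, 29.2 kb into the gene. Capitals mark AGATAA, the motif of the erythroid factor GATA1, or its reverse complement TTATCT. The R1 stretch is chr11:32145658-32145957 and the R2 stretch is chr11:32151062-32151361. Each was chosen because no stretch of that length in its viewpoint fragment holds more matches to the motifs searched, and neither was shown to be the enhancer's core. The 4 fragments were chosen among members of at least 200 bp, since shorter ones reach higher densities from few bases. They are chr11:32149641-32149927 in intron 5, densest of that length from the promoters and from R1 in experiment 1, chr11:32146567-32146860 in intron 6, which adjoins R1, chr11:32135766-32135979 in intron 10, densest of that length from HS-38, and chr11:32155102-32155316 in intron 3, densest of that length from R2.
R1: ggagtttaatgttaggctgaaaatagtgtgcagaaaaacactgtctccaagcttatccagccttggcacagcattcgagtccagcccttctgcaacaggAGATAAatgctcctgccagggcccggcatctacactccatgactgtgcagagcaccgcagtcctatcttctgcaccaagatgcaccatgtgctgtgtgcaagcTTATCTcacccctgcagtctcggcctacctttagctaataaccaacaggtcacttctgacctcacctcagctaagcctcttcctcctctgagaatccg
R2: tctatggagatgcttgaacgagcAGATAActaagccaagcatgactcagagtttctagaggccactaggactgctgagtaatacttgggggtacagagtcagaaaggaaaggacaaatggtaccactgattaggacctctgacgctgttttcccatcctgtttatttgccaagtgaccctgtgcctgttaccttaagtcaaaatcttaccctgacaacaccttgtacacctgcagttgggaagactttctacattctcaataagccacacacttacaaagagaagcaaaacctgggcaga
intron 5 fragment: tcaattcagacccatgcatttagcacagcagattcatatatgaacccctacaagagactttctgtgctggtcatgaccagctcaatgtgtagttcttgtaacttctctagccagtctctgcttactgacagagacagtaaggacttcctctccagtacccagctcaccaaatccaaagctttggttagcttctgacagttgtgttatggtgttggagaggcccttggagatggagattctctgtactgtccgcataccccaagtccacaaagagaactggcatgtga
intron 6 fragment: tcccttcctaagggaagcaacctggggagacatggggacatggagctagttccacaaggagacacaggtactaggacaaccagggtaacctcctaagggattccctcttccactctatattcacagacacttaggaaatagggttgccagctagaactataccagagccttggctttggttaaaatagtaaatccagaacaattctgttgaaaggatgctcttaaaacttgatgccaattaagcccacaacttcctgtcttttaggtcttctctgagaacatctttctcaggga
intron 10 fragment: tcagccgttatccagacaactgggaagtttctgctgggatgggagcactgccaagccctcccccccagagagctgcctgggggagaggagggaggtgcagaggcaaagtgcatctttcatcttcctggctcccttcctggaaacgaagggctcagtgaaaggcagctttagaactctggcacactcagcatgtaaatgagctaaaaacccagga
intron 3 fragment: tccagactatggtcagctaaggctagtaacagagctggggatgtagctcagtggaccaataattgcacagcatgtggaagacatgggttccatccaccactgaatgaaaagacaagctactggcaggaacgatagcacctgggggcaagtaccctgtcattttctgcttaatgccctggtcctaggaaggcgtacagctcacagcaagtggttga

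Matches were searched on both strands with 3 motifs, none of which contains another. The GATA1 motif was AGATAA. For the erythroid factor KLF1 the letters searched were CCACACCC. The core of the CTCF motif was read as AGGGGGC. Letters of the GATA1 motif occurred 18 times in 13 of the 88 members, KLF1 letters 4 times in 3 members and CTCF letters 2 times in 2 members. The whole R1 fragment holds 3 GATA1 matches, and 56.0% of the 7882 chromosome 11 fragments within 10% of its length hold at least 1. R2 holds 1, and 40.9% of 15402 fragments of like length hold at least 1. The 4 intronic fragments printed above hold none of the 3 motifs, like most members. Other dense fragments hold a GATA1 match, such as chr11:32149975-32150163 with part of exon 5, at a WT mean density of 4470 counts per kb per 100000 counts in cis from R1.

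In WT cells a large share of what the α-globin promoters and their enhancers touched lay in Nprl3. From the promoters in experiment 1, 18.8%, 17.4% and 17.2% of the counts in cis fell on the gene (17.8% ± 0.859, SD, n = 3). In experiment 2, with more of the gene readable, the shares were 22.1%, 20.0% and 20.1% (20.7% ± 1.15, SD, n = 3). HS-38, at the far side of the enhancers, placed 16.5%, 16.2% and 15.6% on the gene (16.1% ± 0.456, SD, n = 3). The enhancers inside the gene placed more there. R1 gave 24.8%, 22.4% and 22.0%, and R2 gave 31.2%, 28.2% and 28.2%. The background from other chromosomes was far lower, since the β-globin promoters placed 0 to 0.0988% of their own cis total on the same members over the 18 libraries (median 0.0108%) and the promoter of mitoferrin, an erythroid iron carrier, 0 to 0.0291% (median 0.00609%).

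On the 59 members readable from every viewpoint (25.996 kb), levels can be ordered. Density is given as counts per readable kb per 100000 counts in cis, and in WT it was 1022 ± 59.5 from R2, 689 ± 41.7 from R1, 512 ± 15.4 from HS-38 and 504 ± 22.3 from the promoters in experiment 1 (SD, n = 3 each). R2 lay above R1 and R1 above the others in every library, while the HS-38 and promoter levels overlapped. In experiment 2 the promoters reached 533 ± 35.0, overlapping its values in experiment 1.

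**Figure D2:**
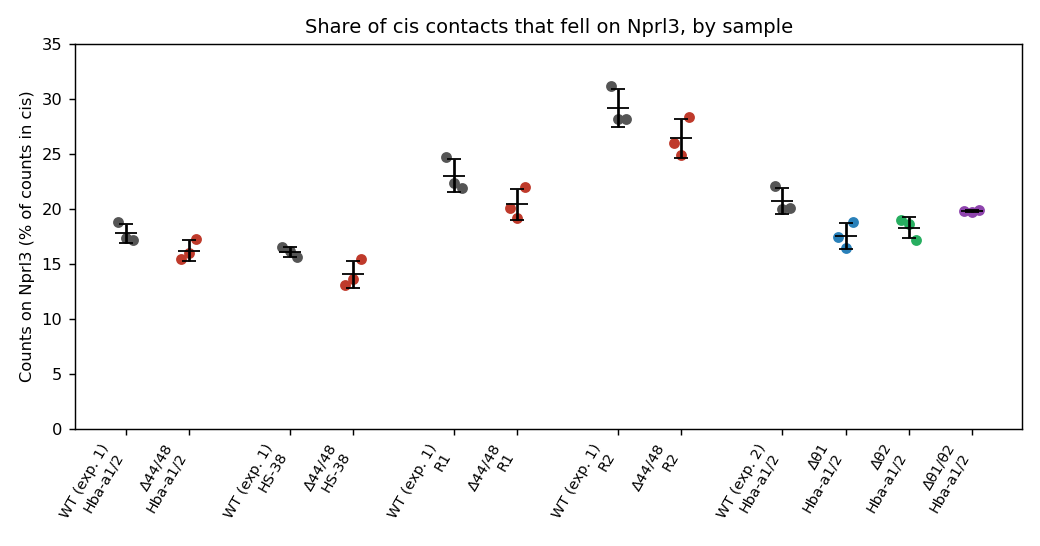
Counts on Nprl3 as a percentage of counts in cis (vertical axis, from 0), with 1 point per library and the mean ± SD (n = 3) for each genotype and viewpoint (horizontal axis). R2 has the highest shares (28.2% to 31.2% in WT), and each deletion's mean lies below that of its WT, without overlap of libraries from HS-38 in ∆44/48 and from the promoters in ∆θ1, ∆θ2 and ∆θ1/θ2.

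Promoter contacts were not spread evenly along Nprl3. In experiment 1 the densest 2 kb of the gene lay 16 to 18 kb from its start site, beside R2, in all 6 libraries, at 1565 in WT against 545 over the whole gene. In 1 kb bins the densest lay at 4 to 5 kb (1855), where a single readable member of 0.017 kb makes up the bin. The 16 to 18 kb stretch was also the densest from R2 (4040) and from R1 (2176) in every library. The R2 viewpoint itself lies at 16.2 kb, and from it that stretch held only 2 readable members of 0.334 kb together, just outside the exclusion zone. From R1 that stretch includes the R2 fragment, which listed 1 count over all libraries of experiment 1, and without it the density was 3432 ± 382 (SD, n = 3). From HS-38 the densest stretch in WT was at 30 to 32 kb (2043), although WT replicate 2 peaked at 26 to 28 kb.

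The members readable at 16 to 18 kb from the promoters differed between the experiments, because the R2 fragment was readable in experiment 2 alone. With it the WT mean of experiment 2 peaked at 16 to 18 kb (1039), but WT replicates 2 and 3 were densest within 2 kb of the start site. On the 73 members readable in experiment 1, a choice made after seeing the data, all 3 WT libraries of experiment 2 peaked at 16 to 18 kb, at 1542, 1319 and 1493, against 1689, 1489 and 1517 in experiment 1. The deletions peaked there too on these members, except for ∆θ2 replicate 3 (0 to 2 kb) and ∆θ1/θ2 replicate 2 (4 to 6 kb).

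Fragment length moved with these densities. Across the members the rank correlation of density with length was -0.85 from the promoters in experiment 1, -0.84 in experiment 2, -0.62 from HS-38, -0.75 from R1 and -0.69 from R2, over 66 to 86 fragments that share libraries and depth. Long fragments offer few ends per kb, and the stretch at 2 to 4 kb, which holds 2 members in 2.762 kb, dipped from every viewpoint. The part of length in the peaks was not tested beyond counting per fragment. In WT this moved the promoter peak to 20 to 22 kb in experiment 1 and to -2 to 0 kb in experiment 2. It also moved the HS-38 peak to 26 to 28 kb and the R2 peak to 14 to 16 kb, while the R1 peak stayed at 16 to 18 kb.

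**Figure D3:**
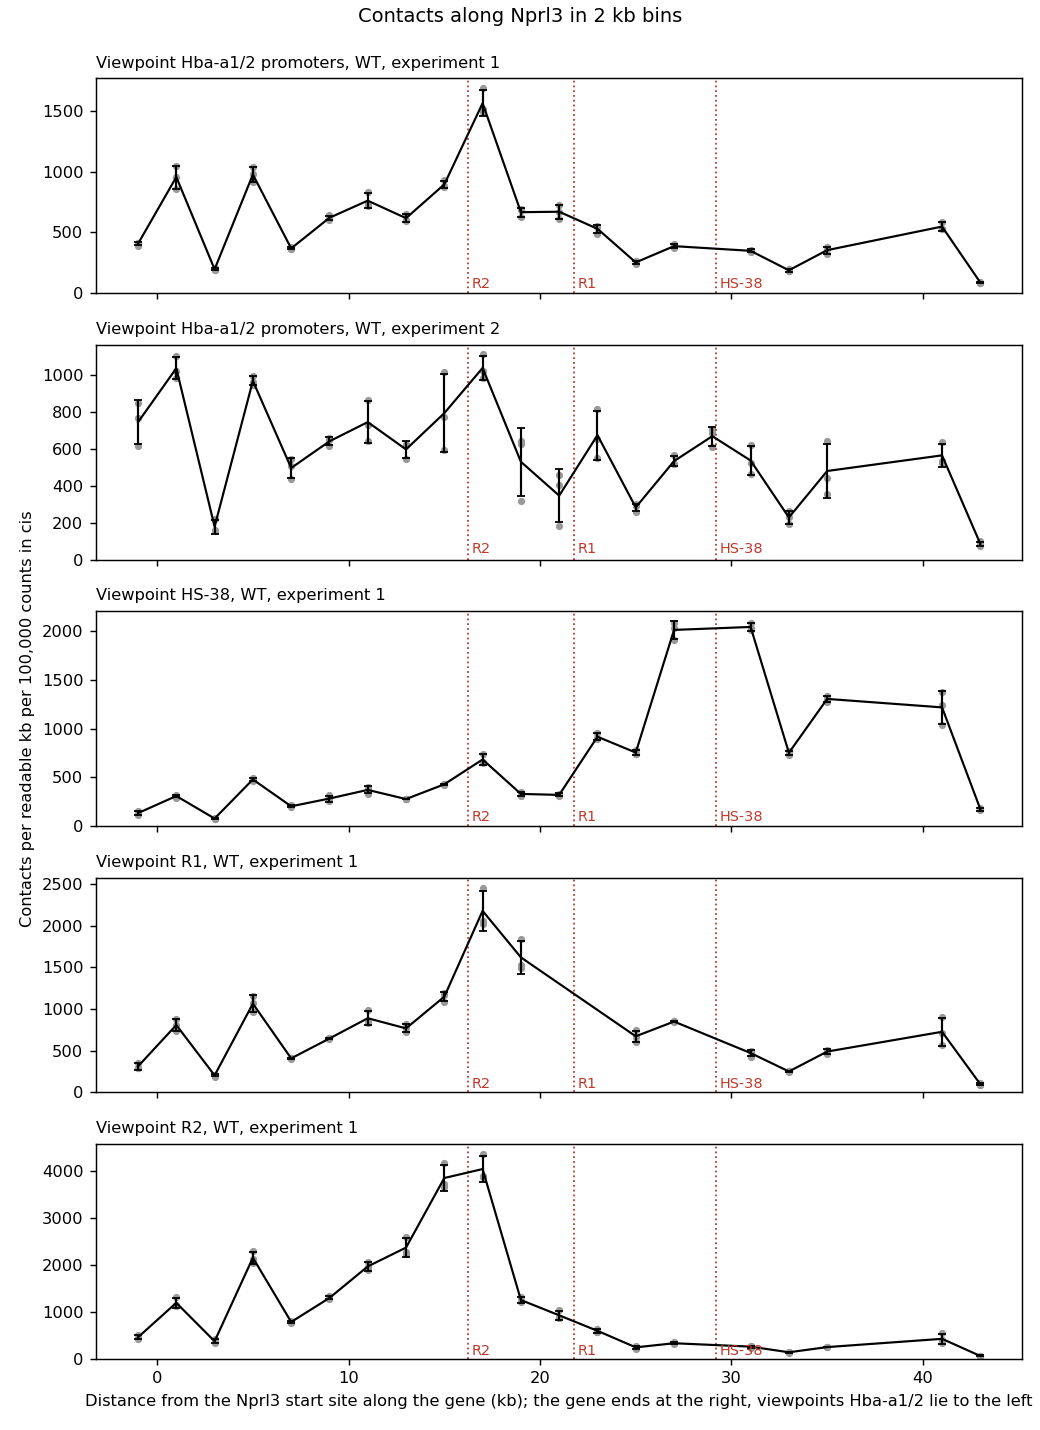
Contact density along Nprl3 in WT (vertical axes, counts per readable kb per 100000 counts in cis) against distance from the start site in 2 kb bins (horizontal axis, kb), with points for the 3 libraries, a line through the means, SD bars and dotted lines at R2, R1 and HS-38. Bins without a readable member have no point. The bin at 16 to 18 kb is highest from the promoters in experiment 1 (1565), R1 (2176, with the R2 fragment in the bin) and R2 (4040), the bin at 30 to 32 kb from HS-38 (2043), and all 5 profiles dip at 2 to 4 kb.

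Single fragments of at least 200 bp were ranked at finer scale. The intron 5 fragment printed above, 17.9 kb from the start site, led from the promoters in WT of experiment 1 with 1761, 1512 and 1568, and also from R1, at 4208, 3440 and 3661. The intron 6 fragment beside R1 followed from the promoters at 1684, 1597 and 1347, and a fragment with exon 5 (chr11:32150268-32150622) at 1406, 1306 and 1401. HS-38 favoured the intron 10 fragment, with 2988, 3070 and 3073 in a narrow range. From R2 the intron 3 fragment led with 5043, 4455 and 4356, on the side of the gene that faces the promoters. Among members of every length these leaders ranked 10 from the promoters, 6 from R1, 4 from HS-38 and 5 from R2, behind fragments of under 200 bp. In experiment 2 the leading promoter fragment was chr11:32167266-32167509 with exon 1, at 1910, 1675 and 2927, and the intron 5 fragment came next but one at 1742, 1458 and 1164. WT replicate 3 was the highest library at exon 1 and the lowest in intron 5, and it is the library with the higher GC quotient.

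Members that lie in introns alone carried more promoter contacts per kb than those with an exon. In WT of experiment 1 the 52 intronic members had 685, 634 and 624, and the 18 with an exon had 457, 424 and 425, without overlap. In experiment 2 the values were 661, 602 and 564 against 508, 457 and 543, also without overlap, though WT replicate 3 had the smallest gap. From R2 the gap was wider, at 1321, 1201 and 1203 against 681, 599 and 597. From HS-38 the classes overlapped, at 554, 530 and 518 against 524, 535 and 510. The intronic members read from the promoters in experiment 1 averaged 375 bp and those with an exon 625 bp, and density was lower on longer fragments, so the part of length in this gap was not tested.

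The viewpoint fragments of the enhancers R1 and R2 and of the CTCF site HS-38 could be read from the promoters in experiment 2 alone, and they were not peaks. The R1 fragment had densities of 277, 330 and 179 in WT, R2 had 367, 403 and 200, and HS-38 had 348, 339 and 285, against 553 over the whole gene. By summed counts they ranked 16, 36 and 21 of 86 members, and by density 80, 77 and 76. They are long, and among the 17 members of at least 700 bp they ranked 11, 9 and 8 by density.

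Setting HS-38, R1 and R2 each against the promoters on the same fragments counts the same ends for both. The quotient of the HS-38 share over the promoter share divided Nprl3 at R1. In WT it was between 0.324 and 0.547 in every 2 kb bin from the start of the gene to 22 kb, then 1.73 at 22 to 24 kb, 2.98 at 24 to 26 kb and 3.66 at 26 to 28 kb, and it reached 4.70 at 30 to 32 kb. Fragments on opposite sides of the R1 fragment differed in every library. The intron 6 fragment on the start-site side had 0.489, 0.453 and 0.643, and chr11:32144385-32145278 on the HS-38 side, also in intron 6, had 1.55, 1.46 and 1.45. Among members of at least 100 bp, the 45 between R1 and the start site had mean quotients from 0.245 to 0.592 (median 0.453), the 7 between R1 and HS-38 from 1.48 to 4.54 (median 2.95) and the 9 beyond HS-38 from 1.98 to 5.03 (median 3.98). No fragment of one side reached the values of the other, and the part of genomic distance in this step was not tested.

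The corresponding quotient for R1 stepped at R2. It stood between 0.766 and 1.28 in the bins from the start site to 16 kb, and rose to 2.19 at 16 to 18 kb and 2.43 at 18 to 20 kb. It was highest past R1, with 2.66 at 24 to 26 kb, and fell back to 1.35 at 30 to 32 kb. From R2 it climbed from 1.13 at the start of the gene to 4.31 at 14 to 16 kb, just on the promoter side of R2, and declined to 0.743 at 30 to 32 kb. In the bins from 30 kb onward R2 placed a smaller share than the promoters, with quotients of 0.688 to 0.783.

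**Figure D4:**
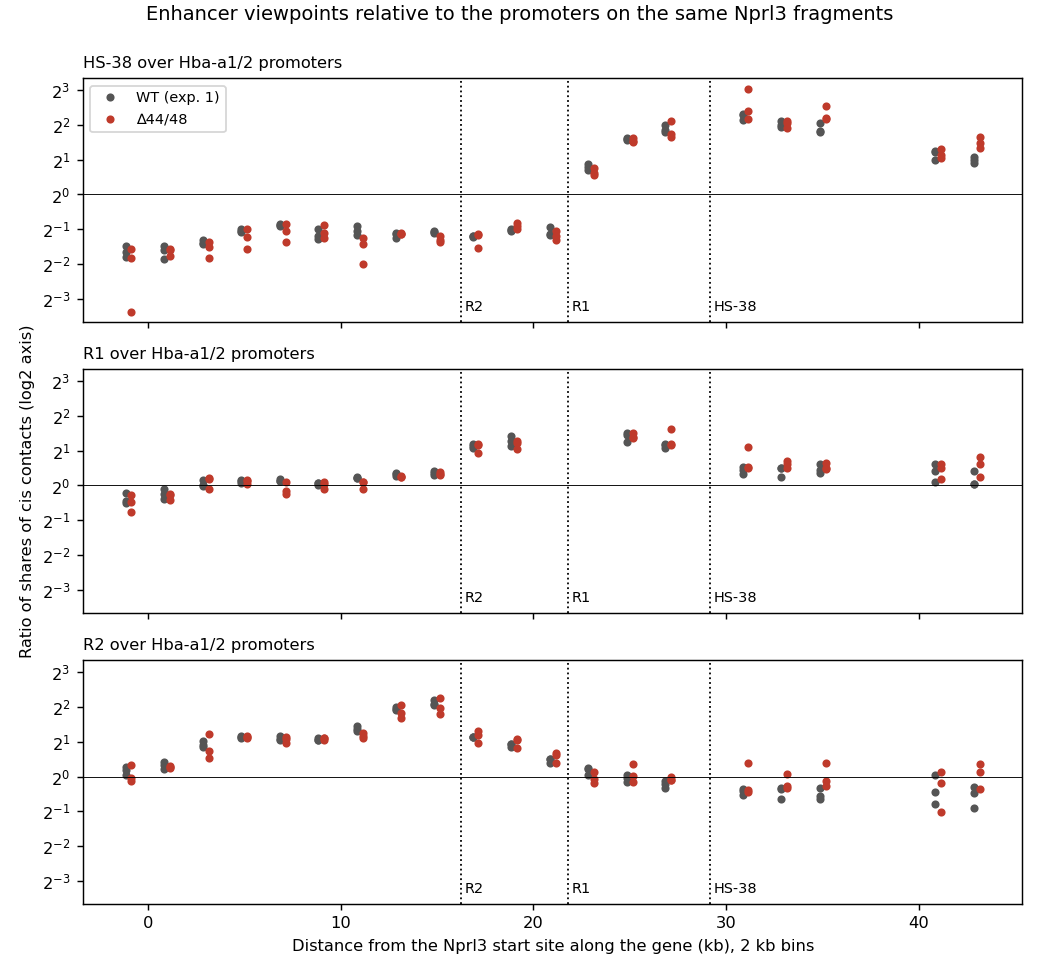
Share of cis contacts from HS-38, R1 or R2 divided by that from the Hba-a1/2 promoters on the same members (vertical axes, log2 scale) against distance from the Nprl3 start site in 2 kb bins (horizontal axis, kb), with 1 point per library for WT and ∆44/48. The HS-38 quotient lies below 1 up to 22 kb (0.324 to 0.547 in WT means) and above 1 beyond R1 (up to 4.70), the R1 quotient steps up at R2 to 2.19, and the R2 quotient is highest at 4.31 just before R2.

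Mean shares on Nprl3 were lower in ∆44/48 than in WT from all 4 viewpoints. From the promoters the ∆44/48 libraries had 15.4%, 16.0% and 17.3%, overlapping WT at 17.2% to 18.8%. The log2 fold change of the summed gene was -0.13 ± 0.046 (SE), with an adjusted p of 0.416 by edgeR's quasi-likelihood test over 2580 windows of the gene's length, of which 0.349% were past the threshold of 0.01. HS-38 gave 13.1%, 13.7% and 15.5% in ∆44/48, all below WT at 15.6% to 16.5%. Here the log2 fold change was -0.19 ± 0.047 (SE), a share 12.6% lower, and it passed the threshold with an adjusted p of 0.00682 in edgeR, as 0.595% of 1850 windows did. Same-numbered HS-38 libraries deviated together, and with the replicate number as a block edgeR gave -0.20 and an adjusted p of 0.0961, which ends the call. Leaving out any single library except ∆44/48 replicate 3 also ended it (log2 -0.22 to -0.14).

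The log2 values of R1 and R2 were of similar size and did not pass. R1 had 20.1%, 19.2% and 22.0% in ∆44/48 against 24.8%, 22.4% and 22.0% in WT, and the groups overlapped. Its log2 fold change was -0.17 ± 0.056 (SE, adjusted p = 0.233 in edgeR, 0.385% of windows called). R2 had 26.0%, 24.9% and 28.4% against 31.2%, 28.2% and 28.2%, with overlap, and -0.14 ± 0.052 (SE, adjusted p = 0.649 in edgeR, 0.25% of windows called). The 4 viewpoints come from the same 6 libraries and are not independent. ∆44/48 replicate 1 was the shallowest library and replicate 3 lay nearest to WT from each viewpoint.

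Windows of the gene's length on either side place the change of Nprl3 in context. The next windows, 1 towards the 3′ side and 2 towards the globin genes, had log2 fold changes from -0.28 to -0.09 from the 4 viewpoints, close to those of Nprl3. From 84.2 to 210.4 kb upstream of the start site, past the globin genes, the windows rose by 0.86 to 1.35 on the log2 scale from all 4 viewpoints, each past the threshold in edgeR (largest adjusted p 4.75e-05). Relative to the median of all windows, Nprl3 stood at -0.28, -0.26, -0.32 and -0.28 from the promoters, HS-38, R1 and R2, and at -0.36 to -0.27 under the other scalings. As shares of a fixed cis total these values are not independent, and whether the lower share on Nprl3 reflects contacts moved to those windows was not tested.

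**Figure D5:**
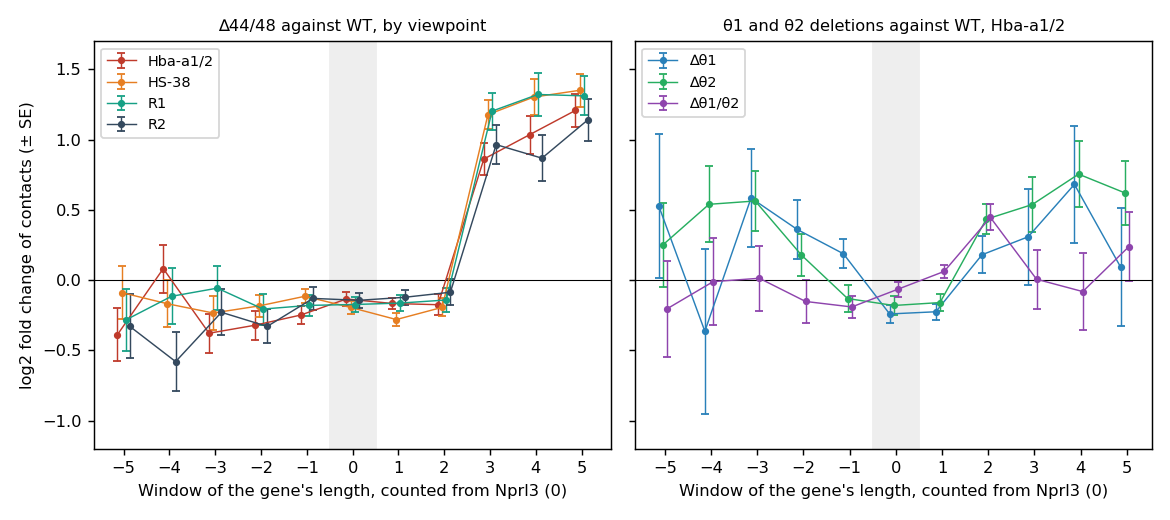
Log2 fold change of contacts ± SE from edgeR (vertical axis) in windows of the gene's length counted from Nprl3 (horizontal axis, 0 is Nprl3 and shaded, positive windows lie towards and past the globin genes), for ∆44/48 from 4 viewpoints and for the 3 θ deletions from the Hba-a1/2 promoters. Nprl3 lies between -0.24 and -0.06 in all 7 comparisons, while in ∆44/48 the windows 3 to 5 rise by 0.86 to 1.35.

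No member fragment passed the threshold of 0.01 in ∆44/48. This was so for 0 of 73 tested from the promoters (0.0884% of all fragments called), 0 of 71 from HS-38 (0.671% called), 0 of 68 from R1 (0% called) and 0 of 66 from R2 (0% called) in edgeR. At an unadjusted p under 0.05 the counts were 12, 12, 9 and 6. The share of all fragments at that level was not counted, so these counts cannot be set against other fragments. The median log2 fold change of the members was -0.10, -0.18, -0.15 and -0.12, beside medians of 0.12, 0.20, 0.15 and 0.07 over all fragments tested. The smallest adjusted p belonged to a short intron 6 fragment read from HS-38 (chr11:32146861-32146902, log2 -0.95, adjusted p = 0.0471 in edgeR), named after its value was seen.

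The stretch between R1 and R2, the densest from the promoters, was lower in every ∆44/48 library. It had 1022, 933 and 901 in WT and 779, 779 and 846 in ∆44/48. From R1 the same stretch had 2925, 2426 and 2406 in WT and 2142, 1876 and 2377 in ∆44/48, again without overlap but with the nearest libraries close together. From R2 it overlapped, at 1463, 1301 and 1286 against 1220, 1092 and 1310. Between R2 and the start site the promoter densities overlapped, at 652, 595 and 599 against 569, 576 and 623. The fall between R1 and R2 has to be read beside the other segments. This stretch was not alone, since from the promoters 3 of 5 segments had every ∆44/48 library below WT. The log2 quotients of the means were -0.25 between R1 and R2, -0.31 between Mpg and HS-39 and -0.45 beyond Mpg. No segment had every ∆44/48 library above WT from the promoters, HS-38, R1 or R2.

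At the 3′ end of the gene HS-38 stood higher against the promoters in ∆44/48. The HS-38 over promoter quotient between Mpg and HS-39 was 4.23, 3.89 and 4.26 in WT and 5.13, 4.35 and 4.63 in ∆44/48, without overlap. Beyond Mpg it was 2.10, 2.22 and 1.98 against 2.56, 2.41 and 2.50. Between R2 and the start site it moved the other way, from 0.422, 0.462 and 0.432 to 0.370, 0.405 and 0.413. Mean density on each viewpoint's own members was lower in ∆44/48 in both 3′ stretches. Between Mpg and HS-39 it was 1090 in WT and 1003 in ∆44/48 from HS-38, and 265 and 214 from the promoters. Beyond Mpg it was 317 and 276 from HS-38, and 151 and 111 from the promoters. The quotients are described after the fact and carry no test.

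Contacts of the promoters lay nearer to the start of Nprl3 in ∆44/48. Their mean distance from the start site was 14.5, 14.8 and 14.5 kb in WT and 13.8, 14.3 and 14.2 kb in ∆44/48, without overlap. The difference was -0.505 kb with an exact permutation p of 0.1, the smallest that 3 against 3 allows, and 0.35 after adjustment over 7 comparisons. Contacts spread evenly over the readable members would average 17.5 kb. From HS-38, R1 and R2 the differences were 0.165, -0.066 and -0.012 kb, with exact permutation p values of 0.4, 0.7 and 1.

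In experiment 2 each θ deletion had promoter shares on Nprl3 below all 3 WT libraries, which the 3 comparisons have in common. ∆θ1 had 17.5%, 16.5% and 18.8%, ∆θ2 had 19.0%, 18.7% and 17.2%, and ∆θ1/θ2 had 19.8%, 19.7% and 20.0%, against 22.1%, 20.0% and 20.1% in WT. The 2 single deletions lay clear of WT, and the double deletion lay just under its lower libraries. The log2 fold changes in edgeR were -0.24 ± 0.067 for ∆θ1 (SE, adjusted p = 0.232), -0.18 ± 0.068 for ∆θ2 (adjusted p = 0.800) and -0.06 ± 0.053 for ∆θ1/θ2 (adjusted p = 0.999). Of the windows tested, 0%, 0% and 0.0865% were past the threshold. Without WT replicate 3 the changes were -0.26, -0.20 and -0.09, and none passed.

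Low depth and base composition moved with the ∆θ1 value. The GC-poor members of Nprl3 had a density of 401 ± 36.9 in ∆θ1 and 561 ± 88.4 in WT (SD, n = 3 each), while the GC-rich members had 538 ± 40.4 and 544 ± 68.8. Both WT means rest on WT replicate 3, with 461 in the GC-poor and 613 in the GC-rich members. WT replicates 1 and 2 had 630 and 591 in the GC-poor members and 545 and 475 in the GC-rich members. In ∆θ2 the GC-poor members had 531 ± 20.9 and the GC-rich members 443 ± 51.1, both below the WT means. The part of base composition in the ∆θ1 difference was not tested. Other scalings between libraries made this change larger, with -0.64 under DESeq2 size factors (adjusted p = 0.000839) and -1.22 under TMM factors in edgeR (adjusted p = 9.94e-12), and these scalings moved the median of all windows to -0.36 and -0.92. Relative to that median Nprl3 stood at -0.24 on the cis totals, -0.28 with DESeq2 and -0.31 with TMM.

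Member fragments did not pass the threshold in these deletions either. It was 0 of 86 tested in each, with 0% of all fragments called in ∆θ1, 0% in ∆θ2 and 0% in ∆θ1/θ2 by edgeR. At an unadjusted p under 0.05 there were 19, 10 and 5 members. The share of all fragments at that level was not counted, so these counts cannot be set against other fragments. The median log2 fold changes of all members tested were -0.36, -0.15 and -0.06, beside -0.28, 0.14 and 0.06 over all fragments. An intron 5 fragment (chr11:32148396-32148902), singled out after its values were seen, had 82, 154 and 28 counts in WT and 0, 0 and 2 in ∆θ1 (log2 -3.69, adjusted p = 0.0468 in edgeR). In ∆θ2 and ∆θ1/θ2 it had log2 values of 0.17 and -0.22.

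Between R1 and R2 the WT densities of experiment 2 were 860, 817 and 634, and those of ∆θ1 were 534, 440 and 594, all lower. ∆θ2 with 651, 715 and 625 and ∆θ1/θ2 with 836, 642 and 673 overlapped WT. For ∆θ2 the overlap rested on WT replicate 3 (634) alone, and without that library all ∆θ2 libraries lay below WT. Between HS-38 and R1 the WT libraries had 515, 495 and 537. All 3 deletions lay below this, with 406, 392 and 490 in ∆θ1, 435, 446 and 370 in ∆θ2 and 428, 464 and 458 in ∆θ1/θ2. The R1 fragment, a strong α-globin enhancer, had 14.6, 241 and 39.1 in ∆θ1, which rests on 1, 11 and 1 counts, and 293, 315 and 350 in ∆θ2 and 312, 284 and 427 in ∆θ1/θ2. At this depth no difference at R1 could be resolved in ∆θ1.

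Of the 3 θ deletions, ∆θ1/θ2 alone had mean contact distances along the gene that did not overlap with WT. The mean distance from the start site was 15.9, 16.0 and 16.1 kb in WT and 15.4, 15.3 and 15.2 kb in ∆θ1/θ2, a difference of -0.719 kb (exact permutation p = 0.1, adjusted 0.35). For ∆θ1 it was -0.093 kb and for ∆θ2 -0.250 kb (exact permutation p = 0.7 and 0.2). Spread evenly, contacts would average 18.4 kb.

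A comparison within each library asked how far the promoters favoured Nprl3 over the other side. Nprl3 was set against windows at the same distances downstream of each promoter, chr11:32199083-32241162 for Hba-a1 and chr11:32224735-32266814 for Hba-a2, the stretch matching Mpg left out. The density on Nprl3 was 5.13, 4.87 and 4.91 times that of the mirror windows in WT of experiment 1 and 5.20, 4.96 and 5.12 times in ∆44/48. The log2 difference was 0.03 (exact permutation p = 0.3), and the groups overlapped. Read from Hba-a1 alone it was 0.22 and from Hba-a2 alone -0.80 (exact permutation p = 0.1 each), so the promoters had opposite signs, and the Hba-a2 window lies farther from Nprl3.

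In the θ deletions the quotient was lower in every library. WT of experiment 2 had 4.65, 4.63 and 4.27, ∆θ1 had 3.41, 3.49 and 3.33, ∆θ2 had 3.44, 3.39 and 3.24, and ∆θ1/θ2 had 3.56, 3.44 and 3.76. Group means on the log2 scale correspond to 4.51 in WT, 3.41 in ∆θ1, 3.36 in ∆θ2 and 3.58 in ∆θ1/θ2. The log2 differences were -0.40, -0.43 and -0.33, each with an exact permutation p of 0.1, the smallest possible, and without WT replicate 3 they were -0.44, -0.47 and -0.37. For ∆θ1/θ2 the difference from Hba-a2 alone was -0.04 (exact permutation p = 0.7). Quotients within a library do not depend on scaling, but they can fall when either side changes. The Hba-a1 mirror window holds Hbq1a, the gene at which the paper places the θ2 CTCF site, edited in ∆θ2 and ∆θ1/θ2. The Hba-a2 window does not hold it, and the part of that site in the quotients was not tested. In the windows fit, the window 42.1 to 84.2 kb upstream of the start site rose by 0.45 on the log2 scale in ∆θ1/θ2 (adjusted p = 0.00196 in edgeR). Its values in ∆θ2 and ∆θ1 were 0.43 and 0.18 (adjusted p = 0.0592 and 0.597 in edgeR).

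Of 236 chromosome 11 genes with enough counts, Il9r, the interleukin 9 receptor gene 3′ of Nprl3, had log2 fold changes most like those of Nprl3 over the 7 comparisons (mean absolute difference 0.041). Next were Gm12107 (0.137) and Hbq1b (0.148), a θ-globin gene. Il9r had -0.16, -0.21, -0.25 and -0.16 in ∆44/48 from the promoters, HS-38, R1 and R2, where Nprl3 had -0.13, -0.19, -0.17 and -0.14. In ∆θ1, ∆θ2 and ∆θ1/θ2 it had -0.24, -0.15 and -0.18.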

How the data were processed

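Upstream, the authors used Trim Galore and FLASH on the read pairs, an in silico DpnII digest, Bowtie against mm9, and the Capture-C scripts to drop PCR duplicates. They deposited raw interaction counts per viewpoint and fragment for 18 samples, and an unlisted fragment was read as 0. Here counts on Nprl3 fragments outside Mpg and outside 1 kb of the viewpoint were divided by the cis total. The gene was summed to 1 feature and fitted with windows of its own length, and fragments with at least 10 counts were fitted together, in edgeR 4.0.16 (R 4.3.3) with cis totals as library sizes, Benjamini-Hochberg adjustment and a threshold of 0.01. DESeq2 1.42.0 served as an alternative. Position and mirror quotients were tested by two-sided exact permutation over samples. Python 3.11.15, numpy 2.4.6, pandas 2.3.3 and matplotlib 3.10.9 were used, and the fits were tested on simulated data. The 3 densest WT fragments of at least 200 bp per viewpoint were named. Members, lists and motifs were chosen with earlier results of these data known. Replicates are biological per the study's methods. Replicate numbers were taken as pairs where the deviations of all 3 same-numbered samples correlated above 0.1, which held only for ∆44/48 from HS-38 (0.199 to 0.288).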

Additional observations from a re-analysis of the deposited data

How the results depend on the processing

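The log2 change of summed Nprl3 contacts was negative under every setting tried for all 7 comparisons. For ∆44/48 from HS-38 it was -0.32 with DESeq2 size factors (adjusted p = 0.999), -0.35 with TMM (0.997 in edgeR), -0.24 with the exclusion zone 5 kb wider (0.0165), -0.17 with Mpg fragments kept (0.0181), -0.20 with the replicate block (0.0961) and -0.27 to -0.14 when leaving out 1 library, where only omission of ∆44/48 replicate 3 kept the call. For ∆θ1 it was -0.64 with DESeq2 size factors (0.000839) and -1.22 with TMM (9.94e-12 in edgeR). The replicate block changed no other call. Over the 7 comparisons, 97 of the alternatives left the outcome of the summed gene as it was, called or not, 10 lost a call and 2 gained one. Only ∆44/48 from HS-38 was called with the settings used above, and there 5 of 15 settings passed, those settings included. Fragments past the threshold numbered 1 at a threshold of 0.05 in ∆44/48 from HS-38 and in ∆θ1. In ∆θ1 they numbered 1 with at least 30 counts, 2 with all groups of experiment 2 in one fit and 1 without WT replicate 3 or without ∆θ1 replicate 3, against 0 to 1 over all omissions. The ∆44/48 mirror difference was -0.80 from Hba-a2 alone. The difference in mean distance turned to -0.0876 kb for HS-38 and 0.122 kb for R2 with the wider zone and to 0.0661 kb for ∆θ1 from Hba-a1 alone. When leaving out 1 library it ranged from -0.137 to 0.0353 kb for R1 (turned without WT replicate 3 or ∆44/48 replicate 1), from -0.0882 to 0.0518 kb for R2 (turned without WT replicate 2 or 3 or ∆44/48 replicate 3) and from -0.499 to 0.283 kb for ∆θ1 (turned without ∆θ1 replicate 3). The centre of the densest WT bin, 17 kb from the promoters, moved to 4.5 kb in 1 kb bins and 21 kb when counting per fragment in experiment 1, an alternative chosen after seeing the data. In experiment 2 it moved to 1 kb from Hba-a1 alone, ranged from 1 to 17 kb over omissions (1 without WT replicate 1), and was -1 kb per fragment. From HS-38 it was 41 kb with the wider zone, 25.5 kb in 1 kb bins, 27 kb per fragment and 27 to 31 kb over omissions (27 without WT replicate 3), and from R2 it was 5 kb with the wider zone and 14 kb in 4 kb bins. The causes were not tested. Depth limits ∆θ1 most, with 1984 counts in its shallowest library.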

Other observations

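Hba-a1 lies 15.7 kb and Hba-a2 28.5 kb upstream of the Nprl3 start site, and the gene was also read from each promoter alone, a comparison chosen after values were seen. Between R2 and the start site the Hba-a1 density was above that of Hba-a2 in 6 of 6 libraries of experiment 1, by 0.19 ± 0.028 on the log2 scale (SD, range 0.157 to 0.221, exact permutation p = 0.0313, the smallest that 6 libraries allow, adjusted 0.0875 over 14 comparisons). Between R1 and R2 it was above by 0.03 in 6 of 6 libraries, and between HS-38 and R1 below by 0.07 (log2 -0.07) in 6 of 6. In experiment 2 the R2 to start stretch was above in 10 of 12 libraries by 0.08 ± 0.084 (exact permutation p = 0.0127, adjusted 0.0875). The R1 to R2 stretch was above in 9 of 12 by 0.02 ± 0.099 (exact permutation p = 0.419, adjusted 0.451), and HS-38 to R1 was above in 3 of 12, with a mean of -0.03 ± 0.089 (exact permutation p = 0.231, adjusted 0.269). None of these passed 0.05 after adjustment, and molecules can be listed under both promoters.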
